A study of Homo sapiens with 56 samples.

Results

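The genes described here are 10 members of the HSP90 and chaperonin system and its transcription factor, chosen by their symbols from the 21595 named genes of the table. They are the cytosolic HSP90 genes HSP90AA1 and HSP90AB1, the HSP90 co-chaperones AHSA1, STIP1, CHORDC1, FKBP4 and CACYBP, the mitochondrial chaperonin genes HSPD1 and HSPE1, and HSF1. All 10 were found and all 10 passed the filter on low values. They were measured by RNA-seq of poly-A RNA in 56 libraries of 4 mantle cell lymphoma cultures, a B-cell lymphoma: 15 of MINO-P, 13 of MINO-VR, 15 of JEKO-1 and 13 of Z138. P and VR are not explained in the labels.

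The study asked about survivin (BIRC5) and MCL-1 as targets where lymphoma cells resist other drugs. CON (5 libraries) is read as untreated. BTZ (6 libraries) is read as the proteasome inhibitor bortezomib and IBR (11) as the BTK inhibitor ibrutinib, since the design text names these 2 drug classes. YM155 (4) lowers survivin expression and S63845 (6) inhibits the MCL-1 protein. CLF (6) is not spelled out in the labels. The combinations are IBR_CLF (8 libraries), BTZ_CLF (4), IBR_YM155 (2), BTZ_YM155 (2), IBR_S63845 (1) and BTZ_S63845 (1). The labels give no dose, time or genotype, and do not say whether libraries of a group came from separate cultures. In the fit over all libraries the p-values measure the spread around summed terms such as treatment and line. That spread holds differences between lines in their response to a treatment. It also holds the spread between libraries of a group, which may be technical. Of the 37 pairings of line and treatment, 22 hold 1 library.

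HSP90 is an ATP-driven chaperone that completes the folding of kinases, steroid receptors and other clients. Its co-chaperones deliver clients, set the speed of the ATPase cycle or hold HSP90 in one shape. The chaperonin is a barrel of HSPD1 (HSP60) subunits with a lid of HSPE1 (HSP10), which folds proteins imported into mitochondria. HSF1 is held inactive by chaperones in resting cells. When unfolded proteins accumulate, for example under a proteasome block, HSF1 forms trimers that bind heat shock elements, repeats of the unit NGAAN in alternating orientation, and turns on chaperone genes. HSF1 activity is set mainly by its protein state, which RNA-seq does not measure.

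The sites below are shown because heat shock elements are the sequences through which HSF1 acts. They are reference sequence from RefSeq promoter windows of GRCh38.p14, each window taken around an annotated start, and they were found by letters, not by binding. The letters searched were TTCNNGAANNTTC and the shorter TTCNNGAA, on either strand, where a match to the longer motif can contain the shorter. The capitals mark the matched letters. For HSP90AA1 the start meant is a downstream one, at 102087044. The window of its upstream start, at 102139749, had no match.
HSP90AA1, chr14:102087104-102087133, minus strand, bases -89 to -60 from the start: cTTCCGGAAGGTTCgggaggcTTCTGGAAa
CHORDC1, chr11:90223083-90223112, minus strand, bases -63 to -34: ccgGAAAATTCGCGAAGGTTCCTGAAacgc
HSP90AB1, chr6:44247770-44247799, plus strand, bases -173 to -144 from a downstream start: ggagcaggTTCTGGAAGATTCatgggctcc
HSP90AB1, chr6:44247823-44247852, plus strand, bases -120 to -91 from the same start: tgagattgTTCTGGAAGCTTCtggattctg
HSPD1, chr2:197500061-197500090, minus strand, in the window of a downstream HSPD1 start: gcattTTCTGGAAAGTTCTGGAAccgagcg
STIP1, chr11:64186173-64186202, plus strand, bases 3 to 32 after a downstream start: cttctagtaggTTCCAGAAggcggcgcgtg

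The longer motif was in windows of 4 of the 8 members with an entry (HSP90AA1, HSP90AB1, CHORDC1 and HSPD1) and in 0.608% of the 27305 gene symbols with a window. The shorter motif was in 5 of 8 members, STIP1 being the fifth, and in 9.46% of all symbols. A gene counts here if any of its windows matches. By window, the longer motif was in 4 of 15 windows of members and in 0.490% of all 35116. The shorter was in 5 of 15 and in 7.74%. The HSPD1 site lies 189 bases after the main HSPD1 start and 294 bases before the start of HSPE1. These 2 genes are read from neighbouring starts on opposite strands of chromosome 2, and in the deposited coordinates (hg38) HSPE1 (197500140 to 197503450) lies inside the span given for HSPD1 (197486584 to 197516738). CACYBP, AHSA1 and HSPE1 had no match in their windows. FKBP4 and HSF1 had no entry.

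Recovered depth was 5.52 to 21.6 M reads a library. RNA of genes encoded in mitochondria took 1.91% to 80.5% of a library, and 6 libraries were above 50%, all of JEKO-1: BTZ replicates 1 and 2, both BTZ_CLF and both IBR_CLF libraries. Levels are therefore given as CPM, read counts scaled to equal library size, over genes not encoded in mitochondria, and the scaling as deposited is given beside results that it moves. JEKO-1 BTZ replicate 3 stood apart from its group: over 13608 genes its correlation with replicates 1 and 2 was 0.66 and 0.67, against 0.94 between those, and its mitochondrial share was 9.92% against 67.6% and 67.5%. B-cell markers summed to 361 to 3347 CPM and the lymphoma markers CCND1, SOX11 and CD5 to 290 to 3742 CPM, with CD5 at 0 in 10 libraries and CD22 in 3. T-cell markers summed to at most 11.2 CPM, myeloid to at most 28.3 and epithelial or stromal to at most 77.2. In MINO-P and MINO-VR the CON, CLF, BTZ and BTZ_CLF libraries carry names of an HK series and all others of an MCL series, so in those lines IBR, YM155 and S63845 against CON cannot be told apart from the series. The same holds for BTZ_YM155 and BTZ_S63845 against CON or CLF.

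With BTZ, HSP90AA1, the stress-inducible cytosolic HSP90, had the highest fitted rise of the members. Untreated libraries held 1306 CPM in MINO-P, 888 in MINO-VR, 6321 in JEKO-1, and 1145 and 2576 in Z138. BTZ libraries held 19981 CPM in MINO-P, 10803 in MINO-VR, 17395 in Z138, and 20109, 19910 and 2108 in JEKO-1. All BTZ libraries but JEKO-1 replicate 3 lay above every untreated library. The level was 15.3-fold the untreated one in MINO-P, 12.2-fold in MINO-VR, 10.1-fold in Z138 and 3.17-fold in JEKO-1 replicates 1 and 2. In JEKO-1 replicate 3 it was 0.334 of the untreated level. The start of JEKO-1 was already high, and its BTZ replicates 1 and 2 reached about the level of MINO-P. Over all lines the fitted log2 fold change was 2.62 (SE 0.52, adjusted p = 0.00029), and 3.15 (SE 0.46, adjusted p = 1.6e-06) without JEKO-1 BTZ replicate 3.

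HSP90AB1, the constitutive cytosolic HSP90, rose less. It went from 2555 to 9388 CPM in MINO-P, from 1717 to 7528 in MINO-VR and from 2760 and 2804 to 12506 in Z138. In JEKO-1 it stood at 6253 untreated and at 11491, 12100 and 975 with BTZ, so replicate 3 was again below its control. The fitted log2 fold change was 1.21 (SE 0.44, adjusted p = 0.0497), and 1.77 (adjusted p = 8.2e-05) without JEKO-1 BTZ replicate 3. The call on all libraries was narrow, since leaving out any of 9 of the 11 CON and BTZ libraries ended it, with adjusted p from 0.086 to 0.13. It was also lost (1.18, adjusted p = 0.054) in a fit with a replicate block for the 2 sets of Z138 libraries.

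In JEKO-1 the direction depends on the scaling. Over genes not encoded in mitochondria, 9 of 10 members were higher in both BTZ replicates 1 and 2 than in CON, all but HSF1. In CPM as deposited, 3 of 10 were higher in both (HSP90AA1, CHORDC1 and FKBP4) and 7 of 10 lower. HSP90AA1 was then 6200 CPM in CON against 6524 and 6470, and HSP90AB1 6134 against 3728 and 3932. The other lines have no library above 50% mitochondrial RNA. How many of all genes separate in the same way in JEKO-1 was not worked out, so its counts may not be particular to the members.

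**Figure D1:**
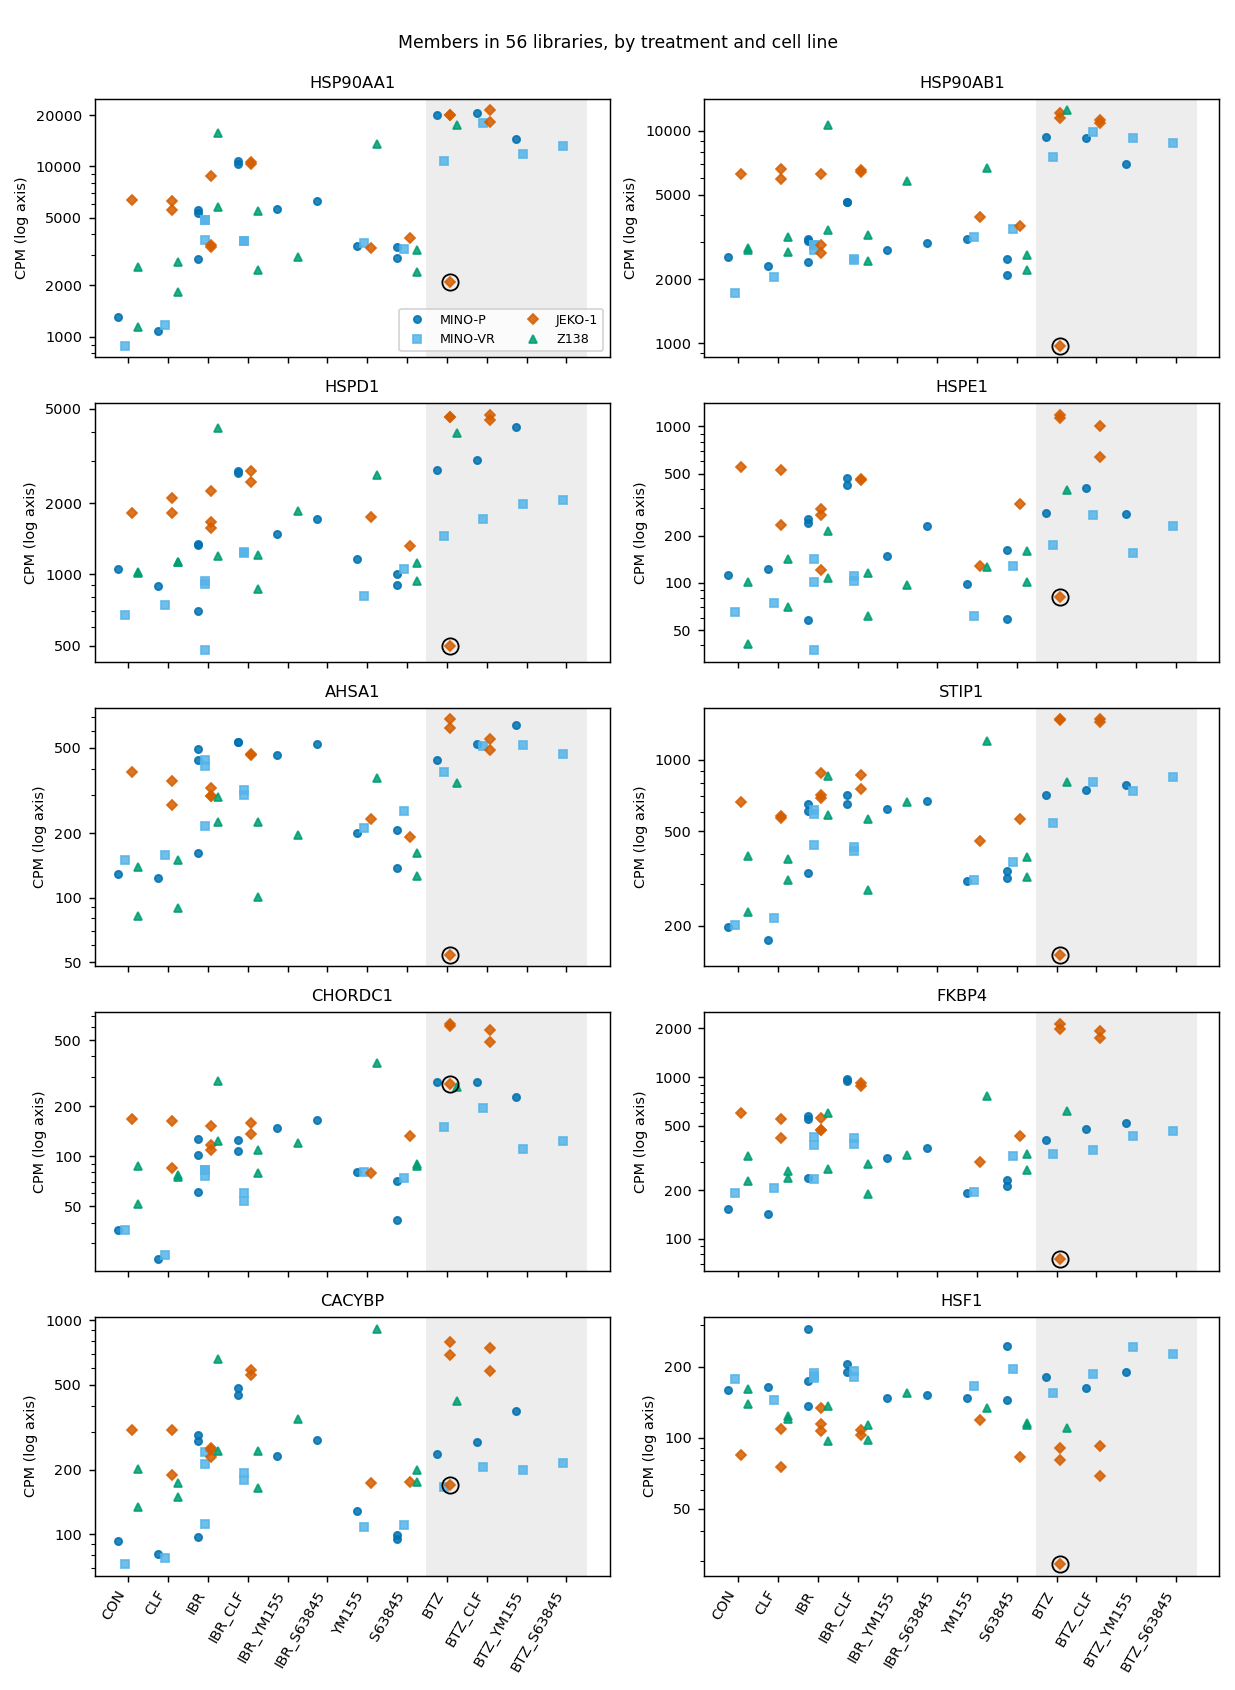
CPM over genes not encoded in mitochondria (log axis) of the 10 members in all 56 libraries, by treatment; each point is 1 library, marked by cell line, the grey band holds treatments with BTZ and the ring marks JEKO-1 BTZ replicate 3. In the band 9 members lie above CON and CLF of their line in all libraries of MINO-P, MINO-VR and Z138. HSF1 shows no such step, and for some members libraries of other treatments lie as high or higher. The ringed library lies below untreated JEKO-1 for all but CHORDC1.

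Among the co-chaperones, CHORDC1 was the member that lay above the untreated libraries of its line in every BTZ library. It encodes morgana, a zinc-binding HSP90 partner. Its untreated level was 35.9 CPM in MINO-P, 36.1 in MINO-VR, 167 in JEKO-1, and 51.7 and 88.1 in Z138. With BTZ it was 281 in MINO-P, 151 in MINO-VR, 261 in Z138, and 608, 624 and 271 in JEKO-1. It was above the CON and CLF libraries of its own line in 13 of 13 libraries with BTZ, alone or combined, JEKO-1 replicate 3 included, and in 12 of 13 in CPM as deposited. The log2 fold change was 2.19 (SE 0.32, adjusted p = 4.4e-06).

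STIP1 (HOP), the adaptor that passes clients from HSP70 to HSP90, rose from 197 to 707 CPM in MINO-P and from 201 to 543 in MINO-VR. In Z138 it was 227 and 394 untreated and 805 with BTZ, and in JEKO-1 665 untreated against 1472, 1477 and 151. CACYBP, a co-chaperone that also binds the ubiquitin ligase SIAH1, rose from 93.2 to 237 CPM in MINO-P, from 72.9 to 166 in MINO-VR and from 135 and 202 to 418 in Z138. In JEKO-1 it was 309 untreated against 686, 791 and 169. Fitted log2 fold changes were 1.05 (SE 0.36, adjusted p = 0.032) for STIP1 and 1.14 (SE 0.38, adjusted p = 0.028) for CACYBP. Both calls were narrow. STIP1 lost its call without any 1 of 8 of the 11 libraries (adjusted p 0.060 to 0.097) and CACYBP without MINO-P CON, MINO-P BTZ, JEKO-1 BTZ replicate 1 or 2, or Z138 CON replicate 1 (0.054 to 0.085).

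AHSA1 (AHA1) speeds the HSP90 ATPase, and FKBP4 (FKBP52) is the immunophilin of steroid receptor complexes. AHSA1 was 129 CPM untreated and 437 with BTZ in MINO-P, 150 and 387 in MINO-VR, and 82.4 and 138.4 untreated against 342 with BTZ in Z138. In JEKO-1 it was 385 untreated against 617, 678 and 54.2. FKBP4 was 152 untreated and 405 with BTZ in MINO-P, 191 and 334 in MINO-VR, 227 and 325 against 617 in Z138, and 601 against 1986, 2132 and 74.6 in JEKO-1. Neither passed on all libraries, AHSA1 with a log2 difference of 0.92 (SE 0.41, adjusted p = 0.11) and FKBP4 with 0.79 (SE 0.48, adjusted p = 0.26). Without JEKO-1 BTZ replicate 3 both passed, at 1.45 (adjusted p = 0.00031) and 1.44 (adjusted p = 0.0012). That library held the lowest level of either gene among all 56.

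The chaperonin genes were higher with BTZ in most libraries. HSPD1 was 1054 CPM untreated and 2770 with BTZ in MINO-P, 674 and 1446 in MINO-VR, and 1017 and 1027 against 3952 in Z138. In JEKO-1 it was 1825 against 4629, 4598 and 496. HSPE1 was 112 untreated and 279.5 with BTZ in MINO-P, 65.3 and 174 in MINO-VR, and 40.6 and 102 against 390 in Z138. In JEKO-1 it was 551 against 1126, 1185 and 81.2. In every line, leaving JEKO-1 replicate 3 aside, the BTZ libraries were above CON for both genes. On all libraries neither passed, with log2 differences of 1.02 (SE 0.39, adjusted p = 0.062) for HSPD1 and 1.27 (SE 0.50, adjusted p = 0.069) for HSPE1. Without JEKO-1 BTZ replicate 3 they were 1.499 (adjusted p = 0.00023) and 1.80 (adjusted p = 0.0014), and HSPE1 also passed without JEKO-1 CON (1.64, adjusted p = 0.030).

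HSF1 RNA, unlike that of the chaperones, had no fitted rise with BTZ. It was 159 CPM untreated and 181 with BTZ in MINO-P, 177 and 154 in MINO-VR, and 139 and 162 against 110 in Z138. In JEKO-1 it was 84.1 untreated against 80.6, 90.8 and 29.1. Of the 13 libraries with BTZ, alone or combined, 5 lay above and 3 below all CON and CLF libraries of their line. The untreated and BTZ ranges overlapped over all lines. The log2 difference was -0.42 (SE 0.22, adjusted p = 0.18), and -0.18 (adjusted p = 0.50) without JEKO-1 BTZ replicate 3. In CPM as deposited it was -0.79 (adjusted p = 0.045), past the threshold.

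In the fit of BTZ against CON 5 of the 10 members passed, all higher: HSP90AA1, HSP90AB1, CHORDC1, STIP1 and CACYBP. Of all 17203 genes tested 18.6% passed in either direction and 4.87% were higher. The members' median log2 fold change was 1.10 against -0.17 over all genes. Without JEKO-1 BTZ replicate 3 the count was 9 of 10. It was 2 without MINO-P CON, MINO-P BTZ, JEKO-1 BTZ replicate 1 or 2, or Z138 CON replicate 1, and 3 without MINO-VR CON, MINO-VR BTZ or Z138 BTZ. It was also 3 in CPM as deposited (HSP90AA1 and CHORDC1 higher, HSF1 lower), and 2 without the 6 libraries above 50% mitochondrial RNA, which leaves replicate 3 as the only JEKO-1 BTZ library. HSP90AA1 and CHORDC1 passed in all 11 fits that left out a library. Averaging 8 pairs of libraries whose names differ only by a final a, called near-copy libraries here, left 2 members past the threshold.

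The comparison of BTZ_CLF with CLF sets other libraries against each other and gave a larger count. It comes from the same fit, with shared line and series terms and a shared spread, so it is not an independent repeat. HSP90AA1 was 20512 CPM in BTZ_CLF against 1078 in CLF in MINO-P, 18013 against 1175 in MINO-VR, and 21302 and 18116 against 6279 and 5526 in JEKO-1. Z138 has no BTZ_CLF library. The groups did not overlap. There 9 of 10 members passed, all higher and all but HSF1, against 16% of all genes in either direction and 5.55% higher. Log2 fold changes were 3.05 (SE 0.56, adjusted p = 0.00019) for HSP90AA1, 2.68 (SE 0.34, adjusted p = 1.3e-06) for CHORDC1, and 1.41 (AHSA1) to 1.69 (STIP1 and FKBP4) for the other 7. HSF1 stood at -0.05 (SE 0.23, adjusted p = 0.92), and above 0 under size factors (0.10) and array weights (0.11).

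The least secure of these calls was HSPE1, which was 402 against 122 CPM in MINO-P, 272 against 75.0 in MINO-VR, and 640 and 1004 against 529 and 233 in JEKO-1. It lost its call without any 1 of 8 of the 10 libraries (adjusted p 0.052 to 0.094). AHSA1 lost it without MINO-P CLF, MINO-P BTZ_CLF or MINO-VR BTZ_CLF (0.055 to 0.061), and FKBP4 without either JEKO-1 BTZ_CLF library (0.063 and 0.066). In CPM as deposited 3 members passed, HSP90AA1 and CHORDC1 higher and HSF1 lower (-0.94, adjusted p = 0.017). In that scaling none of the members was higher in both JEKO-1 BTZ_CLF libraries than in CLF, and 5 were lower in both. These JEKO-1 counts were not set against all genes. Averaging the 8 pairs of near-copy libraries, named alike but for a final a, left 4 members past the threshold. The labels do not say whether the libraries of a pair came from separate cultures, and the main fit counts both.

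**Figure D2:**
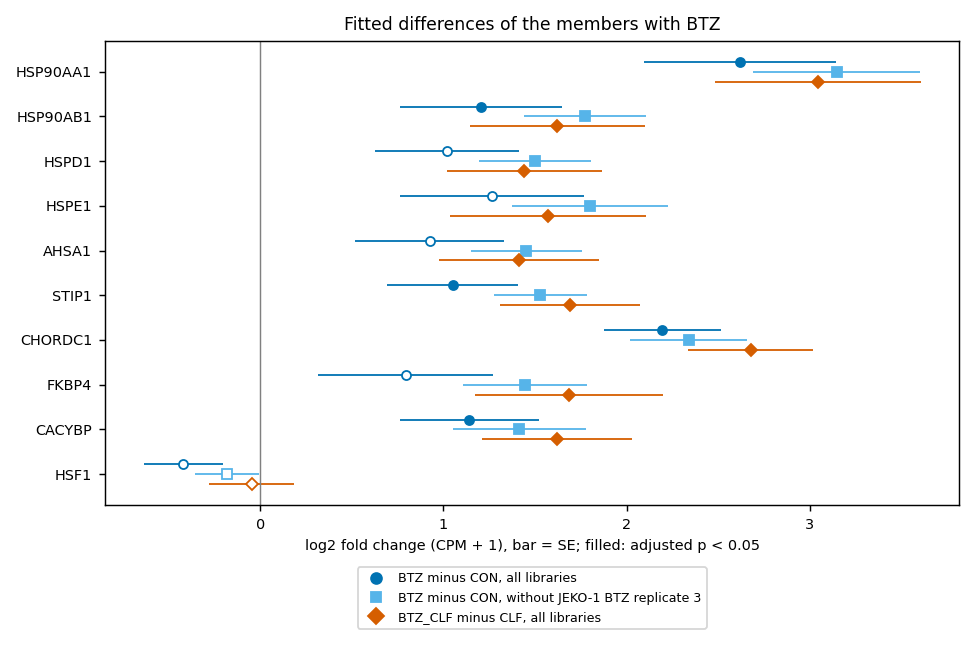
Fitted log2 fold changes (CPM + 1) of the members with their standard errors for BTZ against CON with all libraries, the same without JEKO-1 BTZ replicate 3, and BTZ_CLF against CLF; filled symbols have an adjusted p under 0.05. HSP90AA1 and CHORDC1 lie farthest to the right in all 3 fits, and HSF1 lies below 0.

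Whether the BTZ difference varied by line was tested over the 21 CON, CLF, BTZ and BTZ_CLF libraries. By this test 0 of 10 members passed, with 1 (HSP90AA1) at an unadjusted p under 0.05, against 2.75% of all genes called. The adjusted p of HSP90AA1 was 0.25, and it was 0.0043 without JEKO-1 BTZ replicate 3, when 3 members passed. In CPM as deposited 9 passed. Without the libraries above 50% mitochondrial RNA, replicate 3 is the only JEKO-1 library with BTZ, so no count is given for that fit. The shares of all genes called in these alternative fits are not given here. So the answer to this question turns on the JEKO-1 libraries and their scaling.

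The balance of the HSP90 genes within a library does not depend on scaling. The level of HSP90AA1 against that of HSP90AB1, not corrected for gene length, changed with BTZ. As a log2 ratio it was -0.97 and -1.10 in CON and CLF of MINO-P, -0.95 and -0.80 in MINO-VR, and 0.02, 0.08 and -0.27 in JEKO-1. In Z138 CON libraries were at -1.27 and -0.12 and the CLF libraries at -0.79 and 0.03. The 13 libraries with BTZ, alone or combined, lay between 0.34 and 1.15, all above the highest of the 11 CON and CLF libraries (0.08). Among them, the BTZ_YM155 and BTZ_S63845 libraries are of another library series than CON and CLF of their lines. JEKO-1 BTZ replicate 3, low in nearly all members, had the highest ratio of its line, 1.11. The ratio was higher with BTZ or BTZ_CLF than with CON or CLF by 2.15 in MINO-P, 1.57 in MINO-VR, 0.91 in JEKO-1 and 1.01 in Z138, a mean of 1.41 over the 4 lines. A two-sided exact permutation test within lines over 21 libraries gave p = 0.0001, the smallest its 10080 arrangements allow, and 0.0002 adjusted over the 2 ratios tested. This test was chosen after the values were seen.

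The same ratio of HSPD1 to HSPE1 differed by -0.17 (exact permutation p = 0.48), with 0.07 in MINO-P, -0.47 in MINO-VR, 0.10 in JEKO-1 and -0.39 in Z138. No shift between the chaperonin subunits larger than the spread between libraries was found. Outside BTZ, the 32 libraries of the other treatments had HSP90 ratios from -0.99 to 1.21, so a high ratio was not limited to BTZ.

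**Figure D3:**
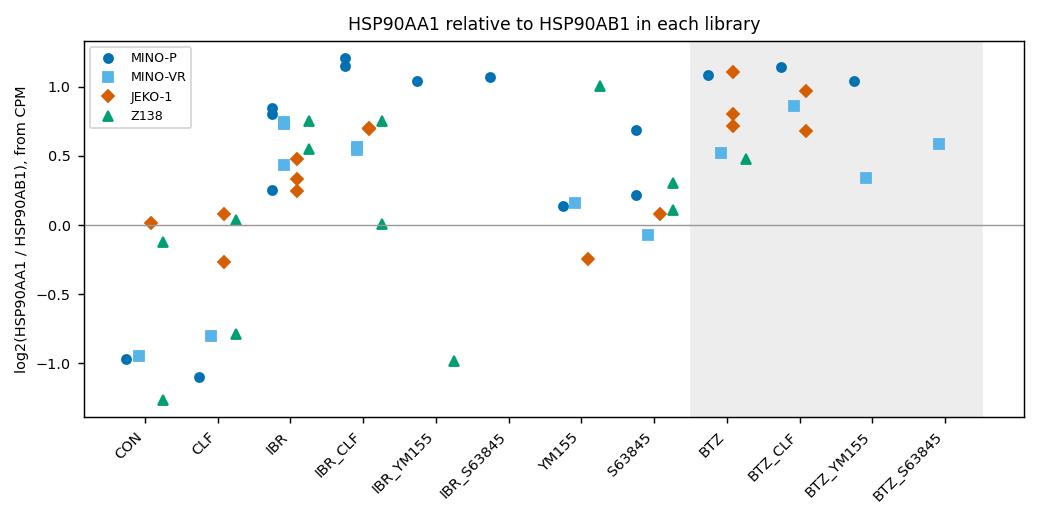
Log2 ratio of HSP90AA1 to HSP90AB1 CPM in each of 56 libraries, by treatment and cell line, with treatments with BTZ in the grey band. CON and CLF libraries lie between -1.27 and 0.08 and all 13 libraries with BTZ between 0.34 and 1.15, while the other treatments spread from -0.99 to 1.21.

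The other genes of the system were counted in 5 lists, in the fit of BTZ against CON, where 4.87% of all genes were higher and 13.8% lower. Of 7 HSF1 target genes 7 rose, with a median of 3.41 on the log2 scale. Among these HSPA1A, the inducible HSP70, rose by 6.31 (SE 1.23, adjusted p = 0.00022) and HSPH1, an HSP70 exchange factor, by 2.72 (SE 0.50, adjusted p = 0.00011). HSPA1A was 10189 and 10013 CPM in JEKO-1 BTZ replicates 1 and 2 against 19.8 in CON, 141 in replicate 3, and 42.4 against 1.36 in MINO-P. Its paralog HSPA1B was 5909 against 12.1 CPM in the same MINO-P libraries. With BTZ in Z138, HSPA1B was 11793 CPM and HSPA1A 52.8. How reads were divided between these paralogs is not given, and untreated HSPA1A outside JEKO-1 was low (0.26 to 1.36 CPM). The other 6 targets were below CON in JEKO-1 BTZ replicate 3, for example HSPH1 with 293 against 852 CPM and HSPA8, the constitutive HSP70, with 395 against 2474. Of 18 further HSP90 paralogs and co-chaperones 4 rose and 4 fell: SUGT1 (1.48), PPID (0.88), PTGES3, the p23 co-chaperone (0.83), and CDC37L1 (0.82) against TRAP1, the mitochondrial HSP90 (-2.19), PPP5C (-1.78), FKBP5 (-1.32) and STUB1, the CHIP ubiquitin ligase (-1.08). HSP90B1, the HSP90 of the endoplasmic reticulum, stood at 0.12 (adjusted p = 0.78).

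Of 14 genes of the cytosolic chaperonin TRiC and its partner prefoldin 3 rose: PFDN4 (1.56), TCP1 (0.95) and VBP1 (0.65). Of 12 genes of mitochondrial protein quality control 0 rose and 2 fell, TRAP1 and AFG3L2 (-0.56). HSPA9, the mitochondrial HSP70 that works beside HSPD1, stood at 0.22 (adjusted p = 0.57). Of 10 HSF family genes and HSF1 regulators 0 rose and 2 fell, PLK1, a mitotic kinase (-3.73), and DAXX (-0.49). HSF2 stood at -0.01 (adjusted p = 0.99). The counts for mitochondrial quality control and HSF regulators went to 1 when single libraries were left out (for example, both without Z138 CON replicate 1 or 2). In BTZ_CLF against CLF, where 5.55% of all genes were higher and 10.5% lower, the same lists gave 7 of 7 targets higher, 6 co-chaperones higher and 2 lower, 2 TRiC or prefoldin genes higher, 2 mitochondrial genes lower, and 1 HSF regulator higher with 2 lower. The co-chaperones there were 3 higher and 2 lower without MINO-P CLF, 4 and 2 without MINO-VR CLF, 4 and 1 without JEKO-1 BTZ_CLF replicate 2, and 2 and 2 without MINO-VR BTZ_CLF. In CPM as deposited the co-chaperones were 1 higher and 5 lower for BTZ against CON and 0 higher and 6 lower for BTZ_CLF against CLF, and the HSF1 targets 6 of 7 higher in both. For BTZ against CON that scaling gave 1 higher and 1 lower TRiC or prefoldin gene, 3 lower mitochondrial genes and 3 lower HSF regulators. For BTZ_CLF against CLF it gave 0 higher and 3 lower TRiC or prefoldin genes, 0 and 8 mitochondrial genes, and 0 and 5 HSF regulators. With the main scaling the HSF regulators called there fell to 1, lower, without any 1 of MINO-P CLF, MINO-VR CLF, MINO-P BTZ_CLF or MINO-VR BTZ_CLF, and the mitochondrial genes to 1 without JEKO-1 BTZ_CLF replicate 1 or JEKO-1 CLF replicate 2.

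IBR gave smaller differences. HSP90AA1 was 2876 to 5572 CPM in MINO-P, 3710 to 4845 in MINO-VR, 3351, 3457 and 8747 in JEKO-1, and 15628 and 5768 in Z138. Every IBR library of Z138, MINO-P and MINO-VR lay above the untreated ones of its line, whereas 2 of 3 in JEKO-1 lay below. STIP1 was 332 to 651 CPM with IBR in MINO-P, 436 to 614 in MINO-VR, 688 to 880 in JEKO-1, and 853 and 582 in Z138, above the untreated libraries of each line. In the fit 0 of 10 members passed against 10.8% of all genes (4.37% higher and 6.39% lower), with 2 at an unadjusted p under 0.05: HSP90AA1 (1.33, SE 0.51, adjusted p = 0.086) and STIP1 (0.91, SE 0.35, adjusted p = 0.085). HSP90AA1 passed without JEKO-1 CON (1.80, adjusted p = 0.036), and 3 members passed when the series term was dropped. All 10 members had fitted differences above 0, from 0.10 for HSPE1 and HSF1 to 1.33, with a median of 0.47. Of the 7 HSF1 targets 3 rose, HSPA1B by 3.77, BAG3 by 2.44 and DNAJB1 by 2.35, and 1 of the 7 passed without MINO-P CON, Z138 CON replicate 1 or 2, or Z138 IBR replicate 1.

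With IBR, YM155 and S63845 most members were lower than CON in JEKO-1. Within that line 2 of 10 members were higher with IBR than in CON (median log2 difference -0.33), 1 of 10 with YM155 (-0.78) and 0 of 10 with S63845 (-0.61). In Z138 the counts were 9, 9 and 8 of 10, with medians of 1.23, 1.62 and 0.21. The share of all genes higher within a line was not worked out, so these counts may not be particular to the members. The untreated JEKO-1 library, the only one of its line, was above every other untreated library for 9 members, from 1.53-fold the next highest for CACYBP to 4.91-fold for HSPE1, and below all others for HSF1. These JEKO-1 differences all rest on that library, and the share of all genes highest in it was not worked out. The difference of the IBR effect between JEKO-1 and Z138, lines of 1 library series, was fitted over 8 libraries after the values were seen. It was -2.90 (SE 1.23, adjusted p = 0.74) for HSP90AA1 and -1.58 (SE 0.51, adjusted p = 0.59) for AHSA1, and 0 of 10 members passed by limma with 5 at an unadjusted p under 0.05, against 0% of all genes called and 938 at that unadjusted level.

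YM155, S63845 and CLF alone gave no call among the members by limma, against 1.15%, 0% and 0% of all genes, and none of the 10 had an unadjusted p under 0.05. The counts over all genes at that level were 2509, 428 and 62. HSP90AA1 with YM155 was 3395 CPM in MINO-P, 3546 in MINO-VR, 3300 in JEKO-1 and 13474 in Z138, and the fitted difference from CON was 1.23 (SE 0.61, adjusted p = 0.34), and 0.62 without the Z138 YM155 library. The single Z138 YM155 library held the highest CACYBP level of all 56 (916 CPM) and the highest CHORDC1 level of its line (363). S63845 libraries held 2385 to 3777 CPM of HSP90AA1 over the 4 lines, a fitted difference of 0.59 (SE 0.56, adjusted p = 1.00), which ran from 0.30 without Z138 CON replicate 1 to 1.03 without JEKO-1 CON. CLF libraries held 1078 to 6279, against 888 to 6321 in CON, a difference of 0.35 (SE 0.52, adjusted p = 1.00), which ran from 0.11 without Z138 CON replicate 1 to 0.77 without JEKO-1 CON.

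**Figure D4:**
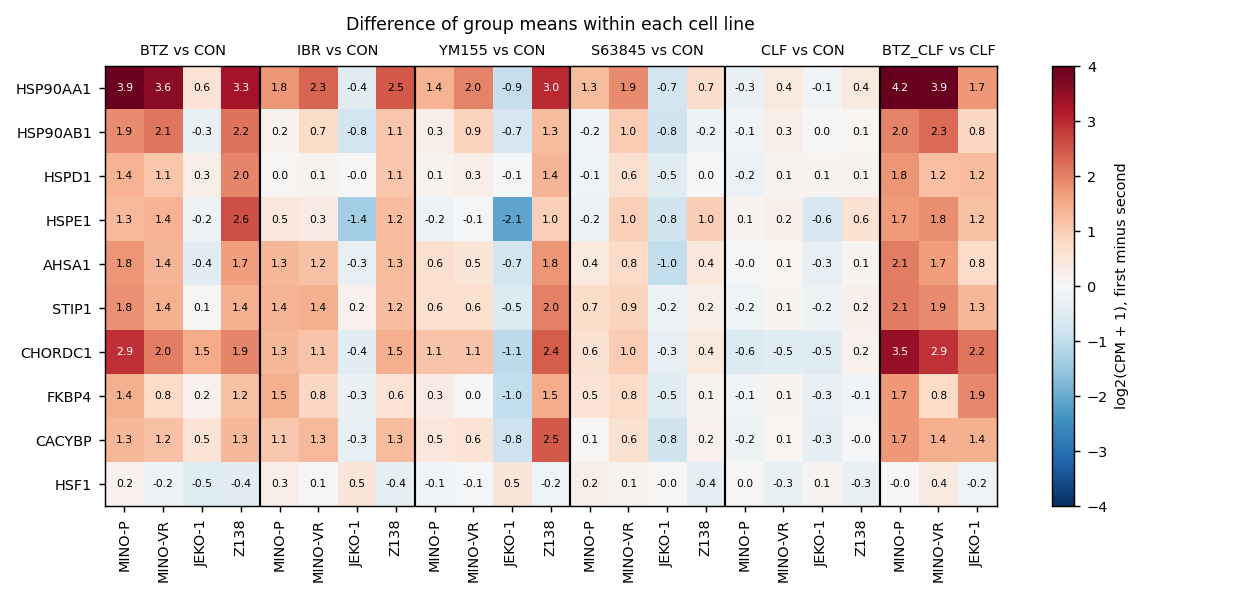
Differences of mean log2(CPM + 1) within each cell line for the 10 members (rows) and 6 comparisons (blocks), red where the treated group was higher; groups of 1 to 3 libraries, with JEKO-1 BTZ including replicate 3. HSP90AA1 and CHORDC1 are the reddest rows under BTZ, and most members are blue in the JEKO-1 columns under IBR, YM155 and S63845.

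Adding CLF to BTZ or IBR took no member past the threshold. In BTZ_CLF against BTZ 0 of 10 passed by limma, 0 at an unadjusted p under 0.05, against 0.0698% of all genes (0.0639% higher and 0.00581% lower) and 1284 genes unadjusted, and FKBP4 had a difference of 0.80 (SE 0.51, adjusted p = 0.70), which was 0.11 without JEKO-1 BTZ replicate 3. In IBR_CLF against IBR 0 of 10 passed, 0 unadjusted, against 0% of all genes with 1679 unadjusted. The lines differed there: all 10 members were higher with IBR_CLF in MINO-P (median 0.94) and 9 of 10 in JEKO-1 (0.71), but 5 of 10 in MINO-VR (-0.06) and 0 of 10 in Z138 (-0.92). That difference between lines was not tested, and the counts were not set against all genes. JEKO-1 IBR_CLF libraries held 60.7% and 59.1% mitochondrial RNA, against 20.9%, 19.9% and 13.5% with IBR. The JEKO-1 count therefore holds only for CPM over genes not encoded in mitochondria. In the scaling as deposited these shares lower every JEKO-1 difference by more than 0.71, which puts the median below 0. HSP90AA1 was 10679 and 10338 CPM in IBR_CLF in MINO-P, 10350 and 10605 in JEKO-1, 3642 and 3627 in MINO-VR, and 2454 and 5479 in Z138. HSPE1 had the largest fitted difference, 0.59 (SE 0.38, adjusted p = 0.64).

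BTZ with YM155 was measured in MINO-P and MINO-VR. HSP90AA1 was 14397 and 11741 CPM there against 3395 and 3546 with YM155 alone. All 10 members were higher in both lines, a count not set against all genes. In the fit 0 of 10 passed against 0.552% of all genes, with 2 unadjusted, HSP90AA1 (1.56, SE 0.75, adjusted p = 0.44) and HSPD1 (1.31, SE 0.57, adjusted p = 0.36). IBR_YM155 against YM155 gave 0 of 10, 0 unadjusted, against 0% of all genes with 352 unadjusted, and STIP1 had 0.49 (SE 0.51, adjusted p = 1.00), which was 1.00 without the Z138 YM155 library and 0.31 without that of MINO-P. The single BTZ_S63845 library, of MINO-VR, held 13137 CPM of HSP90AA1 and the single IBR_S63845 library, of MINO-P, 6228. These have no replicate and were not tested.

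The lines differed in the members beside treatment. HSF1 was 29.1 to 133 CPM in JEKO-1 (median 91.7), 97.1 to 162 in Z138 (120), 136 to 290 in MINO-P (164) and 145 to 243 in MINO-VR (183). Every JEKO-1 library was below every MINO-P and MINO-VR library. The fitted difference of JEKO-1 from MINO-P was -0.87 (SE 0.16, adjusted p = 1.9e-05), and that of Z138 from JEKO-1 0.39 (SE 0.14, adjusted p = 0.016). CHORDC1 was higher in JEKO-1 than in MINO-P by 0.61 (SE 0.24, adjusted p = 0.034), a call lost without any 1 of JEKO-1 IBR_CLF replicate 1, JEKO-1 S63845, MINO-P YM155, MINO-P IBR replicate 3 or MINO-P S63845 replicate 2 (0.057 to 0.073). In all 2 of 10 members passed between JEKO-1 and MINO-P against 39.1% of all genes (22.8% higher and 16.3% lower), a smaller share than the background, and 8 passed without JEKO-1 BTZ replicate 3.

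Besides HSF1, HSPE1 and AHSA1 differed between Z138 and JEKO-1. The HSPE1 median was 108 CPM in Z138, 110 in MINO-VR, 232 in MINO-P and 453 in JEKO-1, with overlapping ranges, and Z138 was below JEKO-1 by a fitted log2 difference of -1.34 (SE 0.33, adjusted p = 0.00054). AHSA1 was also lower in Z138 (-0.69, SE 0.27, adjusted p = 0.025), a call lost without JEKO-1 CON, Z138 CLF replicate 1 or Z138 IBR_CLF replicate 1 (0.050 to 0.066). In all 3 of 10 passed between these lines against 54.5% of all genes (25.7% higher and 28.8% lower), and 6 without JEKO-1 BTZ replicate 3.

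Between the MINO cultures, compared over 25 libraries of 9 shared treatments, the chaperonin subunits were the members that passed. HSPD1 was lower in MINO-VR than in MINO-P by a log2 difference of -0.65 (SE 0.15, adjusted p = 0.0025) and HSPE1 by -0.85 (SE 0.26, adjusted p = 0.019). HSPD1 medians over all libraries of each culture, unshared treatments included, were 1052 CPM in MINO-VR and 1348 in MINO-P. Here 2 of 10 passed against 23.5% of all genes (14.2% higher and 9.31% lower), near the background share, and 5 passed without MINO-P IBR replicate 3. HSF1 did not differ past the threshold, at 0.02 (SE 0.11, adjusted p = 0.92). Of the 12 mitochondrial quality control genes 3 were higher and 3 lower in MINO-VR.

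**Figure D5:**
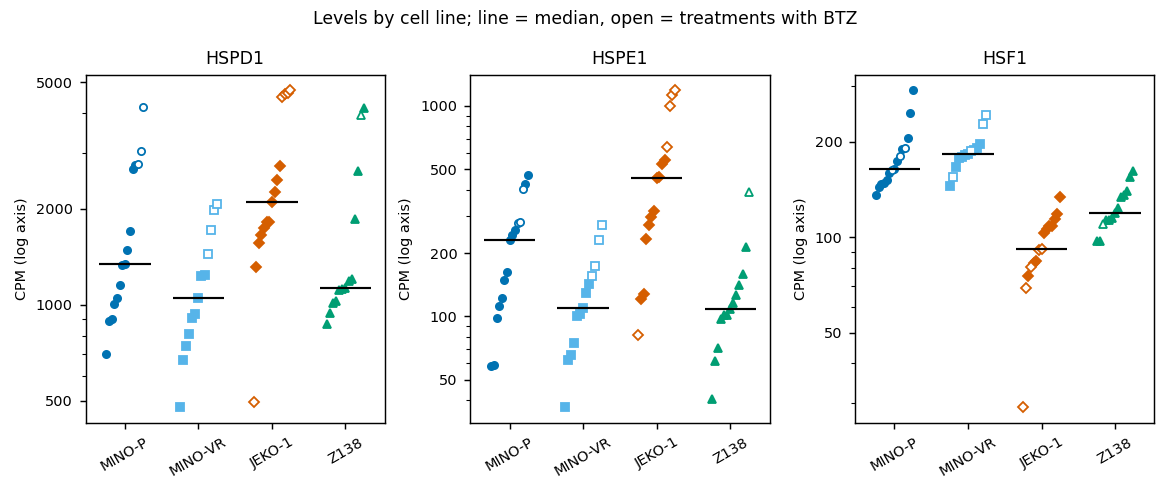
CPM (log axis) of HSPD1, HSPE1 and HSF1 in every library, by cell line and sorted within it; bars are medians and open symbols are treatments with BTZ. HSPE1 medians run from 108 in Z138 to 453 in JEKO-1, and HSF1 in JEKO-1 lies below every MINO-P and MINO-VR library.

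Among themselves, the 9 chaperones and co-chaperones rose and fell together over the 37 line and treatment means, each centred within its line. Their 36 pairwise correlations were 0.68 to 0.96 (median 0.83), highest between AHSA1 and STIP1. The 9 pairs with HSF1 were -0.12 to 0.20. These points share libraries and depth, and any error of scaling moves all genes of a library together. Among 9783 genes with a mean of at least 10 CPM, the 5 most like HSP90AA1 were its pseudogene HSP90AA2P (0.99), HSPH1 (0.97), TCP1 (0.94), ST13, an HSP70 co-chaperone (0.93), and the pseudogene ST13P18 (0.93). Genes most like HSPD1 included HSPD1P1 (0.97), BRF2 (0.90), PSMC1P1 (0.89) and TCP1 (0.88). For HSF1 they were SART1 (0.76), SF3A2 (0.74), DDX49 (0.69), BAG6 (0.69) and TBC1D10B (0.68), and 2 of these 5 were kept in CPM as deposited, against 4 of 5 for HSP90AA1.

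Near-identical copies limit some of these values. Reads listed under HSPD1 pseudogenes came to a median of 13.1% of the HSPD1 level (highest 20.8%), those under CACYBPP2 to 22.6% of CACYBP (highest 36.6%) and those under HSPE1 copies to 4.28% of HSPE1 (highest 21.2%). For HSP90AA1 and HSP90AB1 the shares were 1.05% and 1.32%. How reads were divided among such copies, and whether strand was used where HSPD1 and HSPE1 overlap, is not given in the sources used here. The levels of HSPD1, HSPE1 and CACYBP are uncertain by these shares.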

How the data were processed

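Per the labels' protocols, cells were lysed over QIAshredder columns, RNA was purified with an RNeasy Mini kit, and poly-A libraries were built with TruSeq RNA v2. The submitters' processing notes name Partek and hg38. The aligner, counter, annotation and strand use are not given in the sources used here. The deposited values were log2(CPM + 1), as the values summed to 999983.98 to 1000008.59 a library once the log2 was undone. A row without a gene name (at most 0.00077% of a library) and 15 mitochondrially encoded genes were left out, and CPM was rescaled over the rest. Depth was recovered from the steps of low values, of which 77.6% to 89.4% were whole reads (within 0.05 read), so count tests were not used. The limit of 3 reads was 0.139 to 0.543 CPM, and covers counting error only.

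Tests used limma 3.58.1 (R 4.3.3) with trend on log2(CPM + 1), which understates changes of low genes, for genes with at least 1 CPM in 2 libraries. Terms were treatment, line and library series over 56 libraries. The limma p-values were adjusted by Benjamini-Hochberg over all genes tested, with calls under 0.05. Ratios were tested by exact permutation within lines and adjusted over the 2 ratios only. The fit was tested on simulated data. MINO-VR was compared with MINO-P over 9 shared treatments, and BTZ by line by an F-test. Replicate numbers follow the deposited order. The members and lists were chosen with earlier results of these data known. Named genes were the 10 members in every comparison, the 5 genes outside the members most like HSP90AA1, HSPD1 and HSF1, and the largest and smallest change of each list. Other list genes past the threshold when 5 or fewer passed, and HSP90B1, HSPA9, HSF2, HSPH1, BAG3 and DNAJB1, are named outside that rule and were chosen after their values were seen. A gene that the likeness rule names is not reported here. Promoter windows came from RefSeq on GRCh38.p14. Alternatives changed scaling, filter, pseudocount, model terms, weights and libraries. In Z138, 5 treatments have a library named with and another named without a final A. The differences within these treatments were correlated in all 10 pairs of treatments (0.20 to 0.65 across genes), so the names were taken to pair the libraries and were used as a replicate block in an alternative fit.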

Additional observations from a re-analysis of the deposited data

Results flagged for a closer look

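Members whose IBR libraries all lay below the untreated library in 1 line and all above it in another are given here, on the log2(CPM + 1) scale. In JEKO-1 all 3 IBR libraries were below its single CON library for HSPE1 (-1.36), AHSA1 (-0.33), CHORDC1 (-0.42), FKBP4 (-0.27) and CACYBP (-0.34). For AHSA1, CHORDC1 and CACYBP the IBR libraries of MINO-P (1.34, 1.34 and 1.08), MINO-VR (1.17, 1.13 and 1.29) and Z138 (1.26, 1.46 and 1.28) were all above CON. For FKBP4 those of MINO-P (1.47) and MINO-VR (0.81) were above, and for HSPE1 those of Z138 (1.23). HSF1 went the other way, lower in Z138 (-0.38) and higher in JEKO-1 (0.47) and MINO-VR (0.05). The differences from the MINO lines were not tested, and there IBR and CON are of different library series. Between JEKO-1 and Z138 the difference was fitted by limma and passed for 0 of 10 members (adjusted p 0.59 to 0.91). No group has the 4 libraries that a test for a stray library needs.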

How the results depend on the processing

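For BTZ against CON (5 members) the count was 3 in CPM as deposited, 1 with JEKO-1 and Z138 only, 2 with near-copy libraries averaged, 2 without libraries above 50% mitochondrial RNA, 9 with array weights, 8 in the two-factor fit and 2 to 9 with a library left out. For BTZ_CLF against CLF (9) it was 3 as deposited, 1 with JEKO-1 and Z138 only, 4 averaged and 2 without libraries above 50% mitochondrial RNA. Array weights, which lower the weight of stray libraries, also gave 1 member in IBR against CON (main 0), 1 in IBR_CLF against IBR (0), 3 in BTZ_YM155 against YM155 (0), 4 in JEKO-1 against MINO-P (2), 7 in Z138 against JEKO-1 (3), 5 in MINO-VR against MINO-P (2) and 6 in the BTZ by line test (0). Without the series term IBR against CON gave 3 and JEKO-1 against MINO-P 6. JEKO-1 against MINO-P gave 1 as deposited, with size factors and without libraries above 50% mitochondrial RNA, and Z138 against JEKO-1 gave 1 with those lines only. MINO-VR against MINO-P gave 1 without the filter and 1 averaged. The BTZ by line test gave 9 as deposited and 10 without libraries above 50% mitochondrial RNA. With a library left out the ranges were 7 to 9 for BTZ_CLF against CLF, 0 to 1 for IBR against CON, 1 to 8 for JEKO-1 against MINO-P, 2 to 6 for Z138 against JEKO-1, 2 to 5 for MINO-VR against MINO-P and 0 to 3 for BTZ by line; the cause was not tested. HSF1 in BTZ_CLF against CLF turned from -0.05 to 0.10 with size factors, 0.11 with array weights and ran from -0.12 to 0.054 with a library left out, above 0 without JEKO-1 BTZ_CLF replicate 2 or JEKO-1 CLF replicate 2. JEKO-1 against MINO-P went from 3915 higher and 2810 lower genes to 1987 and 4169 as deposited, and Z138 against JEKO-1 from 4425 and 4952 to 6672 and 2819. The HSP90 ratio kept its direction and its side of the threshold in all 22 alternatives. Scaling as deposited moved the median of all genes in BTZ against CON from -0.17 to -0.42 and the calls from 838 higher and 2366 lower to 288 and 3678, and in BTZ_CLF against CLF from -0.15 to -0.75 and from 955 and 1804 to 230 and 6463. Size factors gave 1351 higher and 1885 lower for BTZ against CON and 1286 and 1418 for BTZ_CLF against CLF. With the Z138 replicate block, chosen after the data were seen, BTZ against CON had 4 members past the threshold (HSP90AB1 lost) and no other member's call changed in the 14 comparisons fitted with it.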
